A study of Mus musculus with 6 samples.

Results

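The cerebellins Cbln1, Cbln2, Cbln3 and Cbln4 and the glutamate delta receptor Grid1 were followed through every table of a study of nuclei from formalin-fixed paraffin-embedded (FFPE) mouse brain. These 5 genes, of 25696 named in the tables used here, were selected as members of a ligand and receptor family whose levels were seen to differ between FFPE and frozen wells. That contrast chose them, so it is given for them as a description with no test. All 5 are in the 19006 mouse genes of the SCRB-seq wells, the 21987 genes of the SMART-Seq2 bulk wells and the 19905 genes of the droplets. The study asked whether intact nuclei taken from paraffin scrolls after different ways of removing the paraffin give usable RNA profiles.

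The tissue was labelled mouse cortex, from C57BL/6J animals of 8 to 12 weeks, cut as 50 µm scrolls. Paraffin was taken out with heated mineral oil, heated xylene or room-temperature xylene, and frozen brain was the reference. In the bulk assays, sorted pools of nuclei were put in wells and read by SCRB-seq, a 3' counting assay with plate barcodes (64 wells, 16 for each of the 4 treatments, 8 of them with 10 nuclei and 8 with 100), or by SMART-Seq2, which reads full-length transcripts (12 wells, with 100, 50 and 10 nuclei for each treatment). Nuclei sorted singly into plates were read by SMART-Seq2 (98 FFPE nuclei in batch 1, 134 in batch 2, 143 FFPE and 137 frozen nuclei in a table of the whole series), and 7031 FFPE nuclei were read in droplets in 1 library. The authors' annotation places the FFPE plate nuclei on the left side of the brain and the frozen ones on the right, so side and treatment cannot be told apart. The sources used here do not give the number of animals behind a well. Each treatment and nuclei number is treated here as 1 pool, since nothing says that its wells came from separate animals, and p-values then measure only the spread between wells.

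Cerebellins are secreted proteins of the C1q family that act as organisers of synapses. They bind neurexins on the presynaptic side and glutamate delta receptors on the postsynaptic side, and so bridge the cleft. Cbln1 is released by cerebellar granule neurons onto Purkinje cells, Cbln3 is made in granule neurons and is secreted together with Cbln1, and Cbln2 and Cbln4 are best known from neurons outside the granule layer. Grid1 encodes the delta receptor GluD1, which is widespread in the forebrain. By textbook knowledge Cbln3 thus has a narrow place of expression, and Grid1 a wide one.

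The genes lie on 4 chromosomes of the mouse build GRCm38, with GENCODE M21 as the annotation. Cbln1 (ENSMUSG00000031654) is at chr8:87468405-87472609 on the minus strand, and Cbln2 (ENSMUSG00000024647) at chr18:86711110-86718283 on the plus strand. Cbln3 (ENSMUSG00000040380) is at chr14:55878913-55884392 on the minus strand, and Cbln4 (ENSMUSG00000067578) at chr2:172036233-172043466 on the minus strand. Grid1 (ENSMUSG00000041078) is at chr14:34820108-35583379 on the plus strand. The cerebellins are compact genes of 4.21 to 7.23 kb, whereas Grid1 covers 763 kb with 5.96 kb of exons. Cbln1 lies wholly within Gm2694, a noncoding RNA gene on the other strand. The sources used here do not say whether the counting used strand or introns, so reads of Cbln1 and of Gm2694 cannot be told apart.

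Total counts ran from 7512 to 167144 a SCRB-seq well, from 270363 to 942966 a SMART-Seq2 well and from 235 to 998 unique molecular identifiers (UMIs) a droplet nucleus. The 16 mineral oil SCRB-seq wells were the shallowest, with a median of 26385 against 58642 to 67425 in the other treatments. Marker lists of cell types went against the cortex label in the FFPE wells. Of 8 cerebellar granule neuron markers, 8 had a higher summed level in FFPE than in frozen wells in both assays. Their summed level was 2562 to 7771 CPM (counts of a gene scaled to a fixed library total) in the 9 FFPE SMART-Seq2 wells and 385 to 677 in the 3 frozen ones, where Gabra6 and Zic1 were at 0. In SCRB-seq it was 243 to 4970 CPM in FFPE and 114 to 605 in frozen wells, where Gabra6 was at 0. Of 8 cortical excitatory markers, 7 had a lower level in FFPE wells in both assays, and their sum ran from 110 to 544 CPM in FFPE and from 792 to 1599 in frozen SMART-Seq2 wells. In SCRB-seq the cortical sum overlapped, with 95.8 to 1140 CPM in FFPE and 525 to 1120 in frozen wells. Purkinje neuron markers, of the same tissue as granule neurons, did not follow the granule list. In SCRB-seq 3 of 6 were higher and 3 lower in FFPE, with a median sum of 1318 CPM against 2824 in frozen wells. Most of that sum was Rora, at 1227 CPM in FFPE and 2110 in frozen wells. In SMART-Seq2 4 were higher and 2 lower, and the sums overlapped, with 1204 to 3737 CPM in FFPE and 2441 to 2870 in frozen wells. Other lists moved as well. In both assays, 4 of 4 inhibitory neuron, 5 of 5 Bergmann glia and astrocyte and 4 of 4 oligodendrocyte markers were higher in FFPE wells, and 4 of 5 striatal markers in SCRB-seq and 5 of 5 in SMART-Seq2 were lower.

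Cbln1 and Cbln3, the ligands of the granule neuron synapse, were found in the FFPE wells and almost not at all in the frozen ones. In SMART-Seq2, the wells of 100, 50 and 10 nuclei held 378, 381 and 248 CPM of Cbln1 after mineral oil, 161, 147 and 61.5 after heated xylene, and 130, 176 and 471 after room-temperature xylene. All 3 frozen wells were at 0. Every FFPE well thus lay above every frozen well, the mineral oil wells lay above the heated xylene wells, and the room-temperature xylene wells overlapped both. Summed over wells, 1250 counts in FFPE stood against 0 in frozen, a level at least 120-fold higher when 3 counts over the frozen wells are taken as the floor.

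Cbln3 was found in the same wells. Its SMART-Seq2 wells of 100, 50 and 10 nuclei held 657, 239 and 667 CPM after mineral oil, 511, 372 and 239 after heated xylene, and 420, 303 and 733 after room-temperature xylene. The 3 frozen wells were again at 0, with no overlap with FFPE, and the methods overlapped. The sums of 2542 and 0 counts put FFPE at least 244-fold higher on the same floor.

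Grid1, the receptor, ran the other way. Frozen SMART-Seq2 wells of 100, 50 and 10 nuclei held 669, 555 and 683 CPM, 636 ± 70.4 (SD, n = 3). The mineral oil wells held 87.5, 128 and 3.90 CPM, the heated xylene wells 282, 190 and 33.9, and the room-temperature xylene wells 173, 47.6 and 2.03. No FFPE well reached the lowest frozen well, and in each method the well of 10 nuclei was the lowest. Summed, Grid1 was at 108 CPM in FFPE and 658 in frozen wells, 6.08-fold lower (95% exact interval 5.50 to 6.73, for counting error only).

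Cbln2 and Cbln4 were near the limit of detection in these wells. Cbln2 stood at 6.43, 0 and 29.2 CPM in the frozen wells of 100, 50 and 10 nuclei, and at 1.44, 28.1 and 0 after heated xylene, with at most 2.04 in any other FFPE well. Its sum was 4.03-fold lower in FFPE (interval 2.28 to 7.17), but the wells overlapped, and without the frozen well of 10 nuclei FFPE was 0.35 CPM above frozen. Cbln4 had counts in 3 of the 12 wells, at 10.7 CPM in a frozen well, 29.3 after heated xylene and 1.76 after room-temperature xylene, and the ratio of 1.38 had an interval from 0.52 to 4.64. Its difference, FFPE minus frozen, ran from −2.54 to 4.25 CPM when 1 frozen well was left out.

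**Figure D1:**
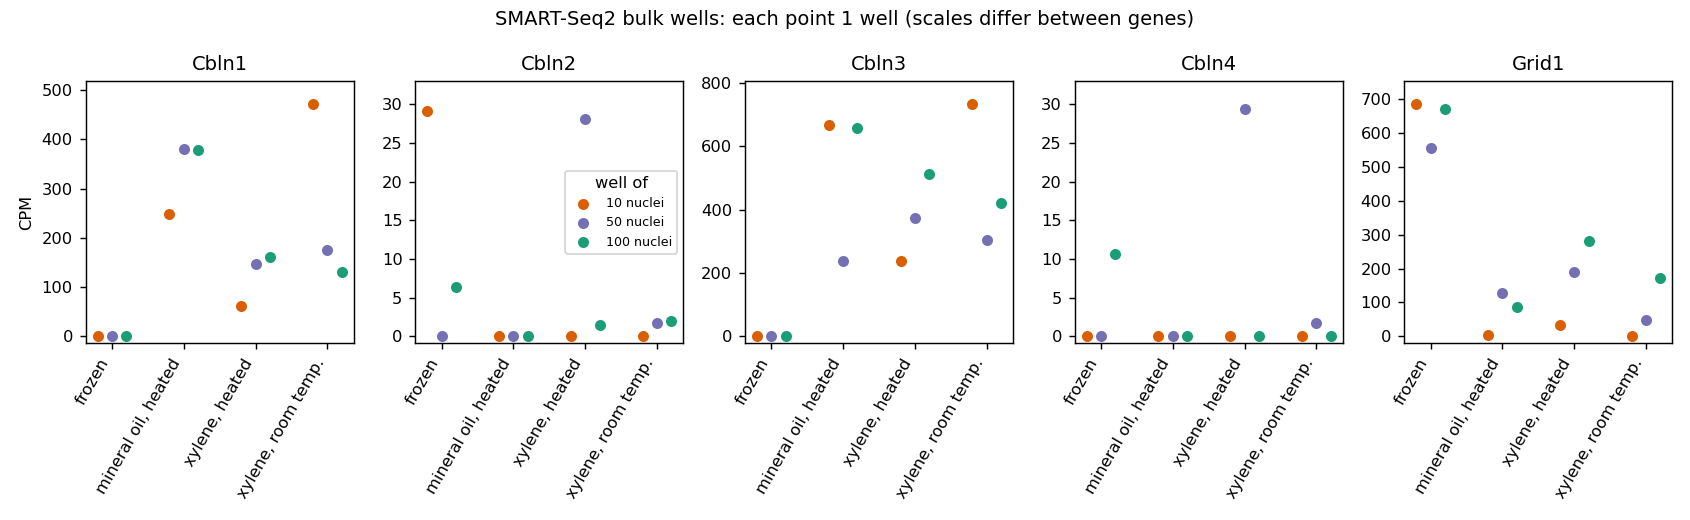
SMART-Seq2 bulk wells, CPM (vertical axis, a scale for each gene) by treatment (horizontal axis), with each point 1 well coloured by its number of nuclei. Cbln1 and Cbln3 are at 0 in the 3 frozen wells and above 61 CPM in all 9 FFPE wells, while Grid1 is above 554 CPM in frozen wells and below 283 in FFPE wells.

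As a background to these counts, 2.5% of 13883 genes with a count in at least 3 wells had every FFPE well above every frozen well, and 4.57% had every FFPE well below. In the fit over all wells, 4.09% of 9092 genes passed an adjusted p of 0.05 for FFPE minus frozen (edgeR quasi-likelihood test). The fitted log2 fold changes of the members in this contrast were 10.00 (SE 1.31) for Cbln1, 11.05 (SE 1.12) for Cbln3 and −3.02 (SE 0.71) for Grid1. Those of Cbln1 and Cbln3 rest on frozen wells at 0 and depend on the prior count. Because this contrast chose the genes, nothing is read from their place in it. In bulk wells, fewer nuclei of a type and less RNA a nucleus cannot be told apart, and the part of the granule neuron markers in the differences was not tested.

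Between genes, levels can be set side by side only per length. Per kb of exon, the summed SMART-Seq2 level in FFPE wells was 92.5 CPM for Cbln3, 72.9 for Cbln1, 18.1 for Grid1, 1.53 for Cbln2 and 1.46 for Cbln4. In frozen wells the order of these levels was Grid1 at 110 CPM per kb, Cbln2 at 6.15, Cbln4 at 1.06, and Cbln1 and Cbln3 at 0. This order holds only for exon lengths. Per kb of the whole gene, Grid1 was at 0.862 CPM in frozen and 0.142 in FFPE wells, the lowest of the 5 in FFPE. The frozen level of Cbln2 was 2.48 on that scale, with 26 of its 29 counts in the well of 10 nuclei.

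The SCRB-seq wells are part of the contrast that chose the genes and are described in the same way. Cbln1 had 910 counts in 40 of 48 FFPE wells, 306 CPM summed, and 1 count in 1 of 16 frozen wells. Cbln3 had 887 counts in 47 of 48 FFPE wells, 298 CPM summed, and 0 in the 16 frozen wells, a level at least 106-fold higher over a floor of 3 counts. For Cbln1 the ratio was 326 with a counting interval from 58.3 to 12880, because it rests on 1 frozen count.

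Grid1 had 415 counts in all 16 frozen wells and 266 in 39 of 48 FFPE wells. Its summed level was 389 CPM in frozen and 89.4 in FFPE, 4.36-fold lower (interval 3.73 to 5.10), and the wells overlapped. Cbln2 had 8 counts in 6 frozen wells and 14 in 7 FFPE wells, all 7 of them wells of 100 nuclei. Cbln4 had 2 counts in 1 frozen well and 0 in the 48 FFPE wells, where 3 counts would be 1.01 CPM. Of 1478 genes, 58% were called between FFPE and frozen in this assay, 447 higher and 410 lower, so a called gene was the usual case there. With DESeq2 size factors the split was 309 higher and 674 lower, and the median fitted change of all genes moved from 0.00 to −0.58. The fitted log2 changes were 6.50 (SE 0.64) for Cbln1, 7.32 (SE 0.71) for Cbln3 and −2.63 (SE 0.32) for Grid1, which was −3.26 with those size factors. Those of Cbln1 and Cbln3 rest on 1 and 0 frozen counts and depend on the prior count. Grid1 passed the filter only with the frozen wells in the fit.

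Gm2694, the gene that holds Cbln1 on the other strand, was also higher in FFPE than in frozen wells, but its order among the methods was not that of Cbln1. It was at 116 CPM after mineral oil, 157 after heated xylene and 101 after room-temperature xylene in SMART-Seq2, and at 1.84 in frozen wells, where the summed level of Cbln1 was 339, 118, 255 and 0. In SCRB-seq it was at 307, 145 and 99.5 CPM in the same order, and at 24.4 in frozen wells, beside 331, 296, 300 and 0.939 for Cbln1. Gm2694 had counts in 9 of 16 frozen SCRB-seq wells, and the 1 frozen well with a count of Cbln1 was not among them.

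**Figure D2:**
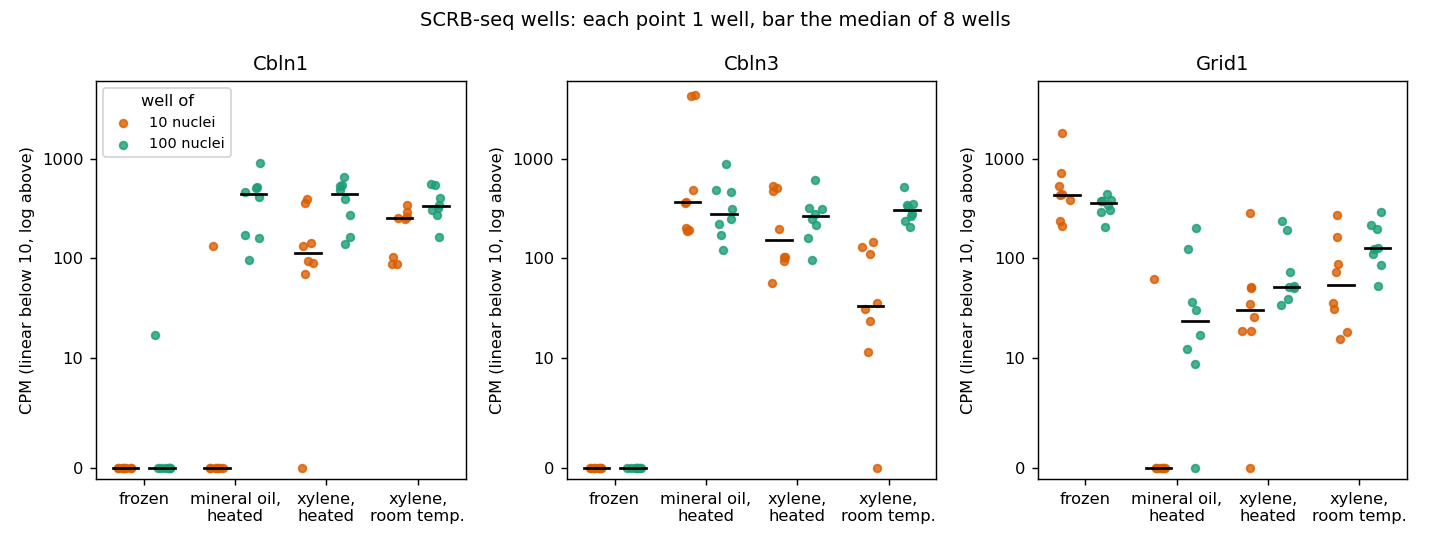
SCRB-seq wells of Cbln1, Cbln3 and Grid1, CPM (vertical axis, linear below 10 and logarithmic above) by treatment, with each point 1 well and each bar the median of 8 wells. Frozen wells of Cbln1 are at 0 except 1 well at 16.9 CPM, those of Cbln3 are all at 0, and the mineral oil wells of 10 nuclei hold almost no Cbln1 beside high Cbln3.

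RefSeq windows of 250 bases before to 50 after the gene start (GRCm38.p6) were at hand for 2 of the 5 genes, the granule ligand Cbln3 and the nearly silent Cbln4. The bases before the annotated transcript start are shown because these 2 cerebellins were the highest and lowest of the 5 genes in the FFPE SMART-Seq2 wells. In the FFPE SCRB-seq wells Cbln1, at 306 CPM, lay above Cbln3 at 298. The Cbln3 stretch is chr14:55884393-55884506 on the minus strand, and the Cbln4 stretch chr2:172043467-172043716 on the minus strand. Capitals mark E-boxes, the motif CANNTG, which reads the same on both strands.
Cbln3: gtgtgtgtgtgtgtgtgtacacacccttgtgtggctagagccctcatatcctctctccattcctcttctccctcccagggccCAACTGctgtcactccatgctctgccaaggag
Cbln4: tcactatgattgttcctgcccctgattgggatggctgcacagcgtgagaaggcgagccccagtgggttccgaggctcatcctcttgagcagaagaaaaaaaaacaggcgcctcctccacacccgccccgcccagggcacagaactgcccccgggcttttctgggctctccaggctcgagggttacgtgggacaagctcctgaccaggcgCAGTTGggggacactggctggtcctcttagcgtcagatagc
The whole window of 300 bases held 1 E-box in Cbln3 and 2 in Cbln4, and 72.3% of 32851 windows of this length hold at least 1. The Cbln3 window had 2 CpG pairs and 57% GC, and 14.1% of windows had fewer CpG. The Cbln4 window had 15 CpG pairs and 60.3% GC, and 65.4% had fewer. The Cbln3 promoter was thus poor in CpG and that of Cbln4 above the median of 7. A motif match describes letters and not a bound site.

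Among the FFPE wells of SCRB-seq, the number of nuclei and the method were tested for the 2 members that passed the expression filter, Cbln1 and Cbln3. Grid1, Cbln2 and Cbln4 did not pass it. Cbln1 rose with the number of nuclei. Its CPM in wells of 100 nuclei had a lowest, median and highest value of 95.9, 439 and 901 after mineral oil, 137, 437 and 654 after heated xylene, and 163, 333 and 552 after room-temperature xylene. In wells of 10 nuclei the values were 0, 0 and 133 after mineral oil, 0, 112 and 391 after heated xylene, and 86.9, 253 and 339 after room-temperature xylene. The groups overlapped in every method, and the mineral oil wells of 10 nuclei held 1 count in 1 of 8 wells.

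Over the 3 methods, Cbln1 was higher with 100 than with 10 nuclei by 1.49 on the log2 scale (SE 0.35, adjusted p = 0.000815, edgeR quasi-likelihood test with Benjamini-Hochberg adjustment). In this comparison 37.6% of 1080 genes were called, so Cbln1 was among many. The call was lost in heated xylene wells alone (1.31, adjusted p = 0.0810) or room-temperature xylene wells alone (0.55, adjusted p = 0.346), and in mineral oil wells alone Cbln1 did not pass the filter. The split of all called genes was 227 higher and 179 lower, and 487 and 105 with DESeq2 size factors, which moved the median of all genes from 0.26 to 0.68.

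Cbln3 had no such change over the 3 methods (0.08, SE 0.39, adjusted p = 0.876, edgeR). Its lowest, median and highest CPM in wells of 10 nuclei were 187, 363 and 4393 after mineral oil, 56.0, 151 and 530 after heated xylene, and 0, 33.0 and 144 after room-temperature xylene. In wells of 100 nuclei they were 122, 280 and 887, 96.2, 264 and 604, and 207, 302 and 516, in the same order of methods. The wells of 100 nuclei thus overlapped across methods, while every mineral oil well of 10 nuclei lay above every room-temperature xylene well of 10 nuclei. In room-temperature xylene wells alone, Cbln3 was higher with 100 nuclei by 2.11 (SE 0.47, adjusted p = 0.00530, edgeR), with 12.1% of 924 genes called.

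The methods were then compared. Cbln3 was higher after mineral oil than after room-temperature xylene by 1.87 on the log2 scale (SE 0.47, adjusted p = 0.00575, edgeR), with 836 ± 1379 CPM (SD, n = 16) against 188 ± 152. In this comparison 10.3% of 1080 genes were called. The difference was 3.92 (SE 0.82, adjusted p = 0.000683) in wells of 10 nuclei, where 19.1% of 509 genes were called, and 0.27 (SE 0.36, adjusted p = 0.689) in wells of 100, so the call did not hold in the deeper wells. The difference of the differences was −3.61 (SE 0.83, adjusted p = 0.000590), from an interaction test chosen after seeing the data, where 29.6% of 1080 genes were called. The summed counts behind the wells of 10 nuclei were 118 of 115185 after mineral oil and 33 of 487311 after room-temperature xylene, and 2 of the mineral oil wells, at 4280 and 4393 CPM, hold 89 of the 118. The call was kept when each of the 48 wells was left out in turn, with differences from 1.40 to 2.04. That check always keeps at least 1 of the 2 high mineral oil wells, so it cannot show whether the call rests on the pair.

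Mineral oil against heated xylene gave 1.34 for Cbln3 (SE 0.46, adjusted p = 0.0556, edgeR), with 8.52% of 1080 genes called. With the number of nuclei as a covariate the adjusted p was 0.0455, with 13.2% of genes called, and leaving out 1 of the 48 wells gave a call in 16 cases and adjusted p values from 0.0361 to 0.223, so this comparison sat at the threshold. Heated against room-temperature xylene gave 0.53 for Cbln3 (SE 0.45, adjusted p = 0.637), with 1.94% of genes called. Cbln1 did not pass the test in any pair of methods: −0.27 (SE 0.46, adjusted p = 0.779), −0.04 (SE 0.45, adjusted p = 0.987) and −0.31 (SE 0.46, adjusted p = 0.722) for mineral oil minus heated xylene, heated minus room-temperature xylene, and mineral oil minus room-temperature xylene. Its mean levels were 210 ± 271, 278 ± 202 and 286 ± 139 CPM (SD, n = 16) after mineral oil, heated xylene and room-temperature xylene.

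Interaction terms of opposite sign were found for Cbln1 and Cbln3. For Cbln1, the log2 value of mineral oil minus heated xylene was higher with 100 than with 10 nuclei by 4.07 (SE 1.04, adjusted p = 0.00191, edgeR), with 28.6% of 1080 genes called. Against room-temperature xylene that change was 4.74 (SE 1.02, adjusted p = 0.000256). The gap lay in the wells of 10 nuclei, where mineral oil had 1 count of Cbln1 and heated xylene 83, while the medians of the wells of 100 nuclei were 439 and 437 CPM. Without the 1 mineral oil well that held this count, the changes were 6.48 and 7.16, so their size rests on it. For heated against room-temperature xylene it was 0.68 (adjusted p = 0.631), where 5% of genes were called. Cbln3 gave −1.56 (adjusted p = 0.135) for mineral oil against heated xylene and −2.05 (adjusted p = 0.125) for the xylene pair. The mineral oil wells of 10 nuclei held 7512 to 20593 counts in all, and each set of 8 wells may be 1 pool, so pool, depth and method cannot be told apart.

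**Figure D3:**
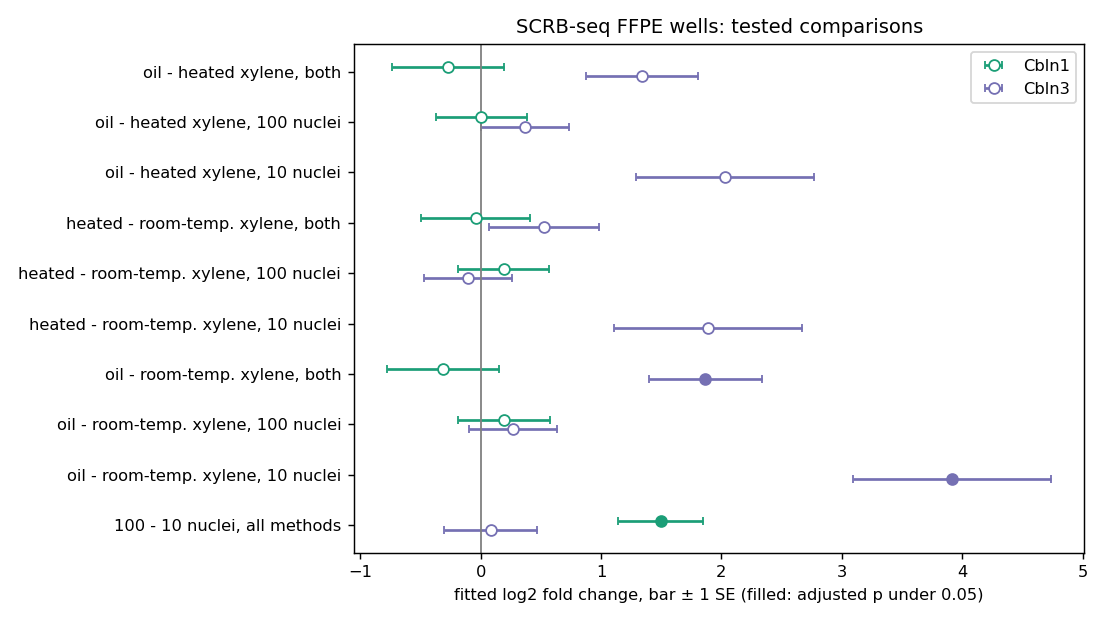
Fitted log2 fold changes of Cbln1 and Cbln3 among the FFPE SCRB-seq wells (horizontal axis) for each comparison (vertical axis), with bars of 1 SE and filled points for an adjusted p under 0.05. Cbln3 is filled for mineral oil minus room-temperature xylene over all wells and in wells of 10 nuclei, and Cbln1 for 100 minus 10 nuclei.

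Grid1 was outside the fit of the FFPE wells and was followed with another filter. Its lowest, median and highest CPM in wells of 100 nuclei were 0, 23.6 and 202 after mineral oil, 34.0, 51.9 and 237 after heated xylene, and 52.6, 125 and 291 after room-temperature xylene. In wells of 10 nuclei, mineral oil had 1 count in 8 wells, and the xylene medians were 30.1 and 53.7 CPM, heated and room-temperature. In the frozen wells the values were 203, 357 and 445 with 100 nuclei and 212, 435 and 1817 with 10. Grid1 was thus lowest after mineral oil, with wide overlap among methods. With genes kept at 1 count in at least 8 wells, mineral oil minus room-temperature xylene gave −1.76 (SE 0.57, adjusted p = 0.0200, edgeR), and 19.6% of 12596 genes were called under that filter. Markers of other cells moved with the method too. The median summed level of 4 inhibitory neuron markers was 72.9 CPM after mineral oil, where Gad2 and Slc32a1 were at 0, 455 after heated xylene and 506 after room-temperature xylene. That of 4 oligodendrocyte markers was 182, 1756 and 1716 CPM, while the granule neuron list had 2463, 2343 and 2375. Their part in the method differences of Grid1, Cbln3 and their partners was not tested.

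In SMART-Seq2, no gene passed the test in any pair of methods: 0% of 8372 were called by edgeR in each, 314, 199 and 379 genes had an unadjusted p under 0.05, and DESeq2's Wald test called 16, 1 and 20, for mineral oil minus heated xylene, heated minus room-temperature xylene, and mineral oil minus room-temperature xylene. Cbln1 was at 336 ± 76.1 CPM after mineral oil, 123 ± 53.9 after heated xylene and 259 ± 185 after room-temperature xylene (SD, n = 3). Cbln3 was at 521 ± 244, 374 ± 136 and 485 ± 222 in the same order. The fitted differences of mineral oil minus heated xylene were 1.44 for Cbln1, 0.49 for Cbln3 and −1.22 for Grid1, with adjusted p of at least 0.9997 in edgeR. Mineral oil minus room-temperature xylene gave 0.17 for Cbln3 and 0.04 (SE 1.28) for Grid1, so the lower Grid1 level after mineral oil in SCRB-seq was not seen for this pair here.

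Partner genes of the cerebellin complex were taken as a list of 19: neurexins, C1q-like proteins with their receptor Adgrb3, the netrin receptors Dcc and Neo1, and postsynaptic scaffold and receptor genes. In the FFPE SCRB-seq wells 10 of the 19 were tested.

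For mineral oil minus room-temperature xylene, 5 of 10 partners fell and 0 rose, with a list median of −0.85 against −0.13 for all genes, of which 84 fell and 27 rose among 1080. They were the scaffold Shank2 (−2.11, adjusted p = 0.00237, edgeR), the neurexins Nrxn2 (−1.47, adjusted p = 0.0181) and Nrxn3 (−0.74, adjusted p = 0.0156), Dcc (−1.14, adjusted p = 0.0143) and the scaffold Dlg2 (−0.96, adjusted p = 0.00477). For mineral oil minus heated xylene 2 of 10 fell, Shank2 (−1.70, adjusted p = 0.0131) and Dlg2 (−0.74, adjusted p = 0.0356), with a median of −0.33 against −0.15, and 75 fell and 17 rose among all 1080. For heated minus room-temperature xylene 1 of 10 fell, Nrxn2 (−2.05, adjusted p = 0.00449), with a median of −0.31 against −0.02, and 10 fell and 11 rose among all 1080. Within wells of 100 nuclei alone, Nrxn2 and Shank2 were not called after mineral oil, and in wells of 10 nuclei alone Dlg2, Nrxn3 and Dcc were not. In SMART-Seq2, 15 of 19 were tested and 0 were called by edgeR in each pair.

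Between FFPE and frozen wells the partners are described without a test. In SCRB-seq 4 of the 12 fitted were above 0 and 8 below, with a median of −0.45 against 0.00 for all genes. Among the 8, Shank1 (−1.56) and Shank3 (−0.56) passed the filter only with the frozen wells, where they were higher, in the fit. Nothing is read from their signs or from the list median. In SMART-Seq2 5 of 15 were above 0 and 10 below, with −0.14 against −0.13. Shank2 was at −3.22 (SE 0.50) and Grm5, the metabotropic receptor of forebrain neurons, at −1.99 (SE 0.35) in SMART-Seq2.

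In nuclei sorted singly into plates, the ligands Cbln1 and Cbln3 and the receptor again parted by treatment in their shares of nuclei with a count. With 1 sample a treatment there is no test, and intervals are exact binomial ones that cover counting error only. Of the 143 FFPE nuclei in the table of the whole series, 62.2% had a count of Cbln1 (95% interval 53.8 to 70.2) and 45.5% a count of Cbln3 (37.1 to 54.0). Of 137 frozen nuclei, 8.03% had Cbln1 (4.08 to 13.9) and 1.46% had Cbln3 (0.177 to 5.17). Grid1 had a count in 42.0% of FFPE (33.8 to 50.5) and 81.8% of frozen nuclei (74.3 to 87.8), and Cbln2 in 6.29% (2.92 to 11.6) and 19.0% (12.8 to 26.6). Cbln4 was in 1 FFPE and 3 frozen nuclei. The intervals of Cbln1, Cbln2, Cbln3 and Grid1 did not meet between treatments. Of the 143 FFPE nuclei, 134 are those of batch 2, and 1 of the other 9 held 3475 of the 7967 counts of Grid1. In summed level Grid1 parted less, at 337 CPM in FFPE and 379 in frozen nuclei. By plate it was at 151 CPM on MB14 and 310 on MB16 of batch 2, beside 293 and 461 on frozen plates 1 and 2. Cbln2 was at 3.51 CPM in FFPE and 7.27 in frozen nuclei, and at 7.83 in the batch 2 nuclei alone.

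Depth differed, with a median of 47887 counts in FFPE and 255329 in frozen nuclei. Each nucleus was therefore thinned to 10000 counts, which left out 8 FFPE and 10 frozen nuclei and gave 38.5% and 0.787% of FFPE and frozen nuclei for Cbln1, 34.1% and 0% for Cbln3, 25.9% and 55.1% for Grid1 and 1.48% and 3.94% for Cbln2. The order of the treatments was kept for these 4 genes. The thinned intervals of Cbln2, from 0.18 to 5.25% and from 1.29 to 8.95%, overlapped.

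The authors' plate batches differed from each other. Cbln1 had a count in 17.3% of the 98 nuclei of batch 1 (10.4 to 26.3) and 61.2% of the 134 of batch 2 (52.4 to 69.5), although batch 1 was deeper, with a median of 180584 counts against 42747. Thinned to 10000 counts, these shares were 7.78% and 41.3%. Cbln3 had 29.6% (20.8 to 39.7) and 43.3% (34.8 to 52.1), and Grid1 39.8% and 38.1%. Cbln4 was at 0 in both batches, with intervals up to 3.69% and 2.72%. The intervals of Cbln1 did not meet between the batches, and those of Cbln3 and Grid1 did.

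Within batch 1, Cbln3 was in 14.3% of 28 nuclei on plate MB17 (4.03 to 32.7) and 35.7% of 70 on plate MB18 (24.6 to 48.1), at median depths of 65894 and 215763 counts, and the intervals overlapped. Cbln1 had 3 counts on plate MB17 and 821 on plate MB18, 536 of them in 1 nucleus. In batch 2 the plates MB14 and MB16 gave 65.7% and 56.7% for Cbln1 and 46.3% and 40.3% for Cbln3, with overlapping intervals. The summed counts put Cbln3 over Cbln1 in batch 1, with 5920 against 824, and Cbln1 over Cbln3 in batch 2, with 4493 against 1474. Of the 824 counts of Cbln1 in batch 1, 65.0% lay in 1 nucleus.

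**Figure D4:**
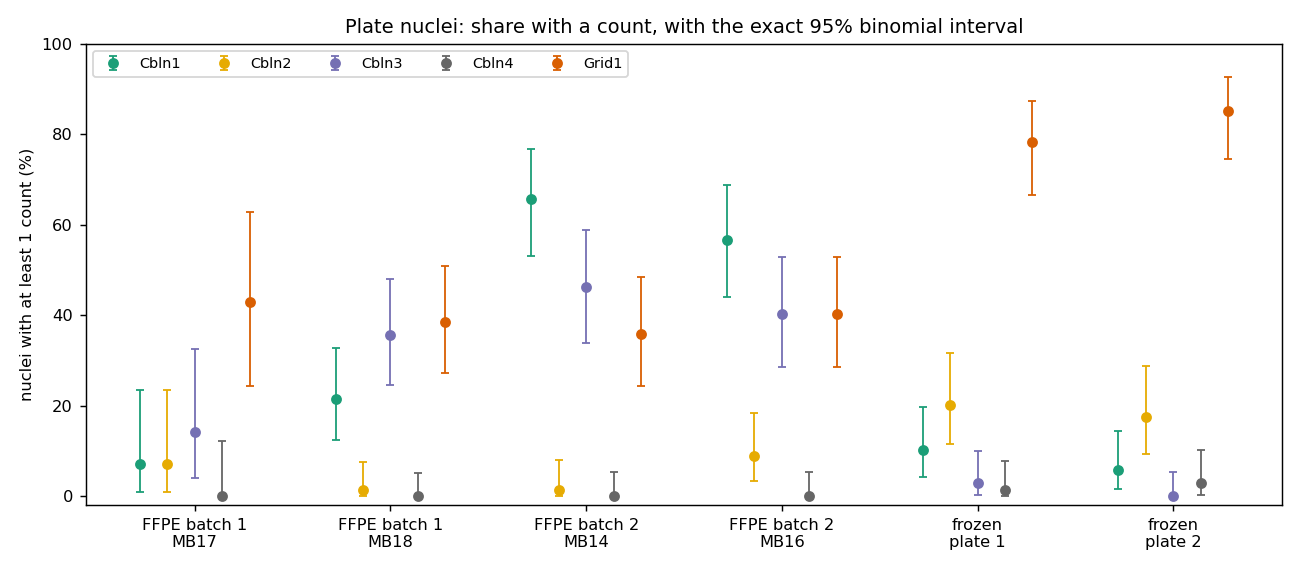
Share of plate nuclei with at least 1 count (vertical axis, %) for the 5 genes by plate (horizontal axis), with exact 95% binomial intervals as bars. Grid1 is above 78% on both frozen plates and at 35.8 to 42.9% on the 4 FFPE plates, and Cbln1 is above 56% only on the 2 plates of batch 2.

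Whether the genes were found in the same nuclei was described for each batch. In batch 1, Gabra6, a GABA-A receptor subunit of granule neurons, had a count in 24 of 29 nuclei with Cbln3 and in 8 of 69 without it. It was in 14 of 17 nuclei with Cbln1 and in 18 of 81 without. In batch 2, Cbln3 was in 42 of 82 nuclei with Cbln1 and in 16 of 52 without, and Gabra6 in 37 of 82 and 12 of 52. Grid1 was in 22 of 58 batch 2 nuclei with Cbln3 and in 29 of 76 without, shares that lay close together. Depth moved with some of these splits. In batch 1, the median total was 230878 counts with Cbln3 and 169593 without, and 205552 with Cbln1 and 176152 without. In batch 2, it was 56372 with Cbln3 and 40050 without, and 42332 with Cbln1 and 48102 without. The granule neuron list was at 3792 CPM in batch 1, 3092 in batch 2 and 533 in frozen nuclei, where Gabra6 had 2 counts in 1 nucleus. Over the whole-series table, other lists differed as well, some against the direction in the wells. The inhibitory list was at 418 CPM in FFPE and 1015 in frozen nuclei, that of Bergmann glia and astrocytes at 706 and 1066, and that of oligodendrocyte precursors at 99.2 and 295. The part of these markers in the shares was not tested.

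In the frozen nuclei, Cbln2, a cerebellin of forebrain neurons, was set beside the receptor. Grid1 had a count in 25 of 26 nuclei with Cbln2 and in 87 of 111 without it. Nuclei with Cbln2 had a median of 718455 counts and those without 114185, so depth moved with both. Gm2694 had counts in 18 of 137 frozen and 60 of 143 FFPE nuclei, and 44 of those 60 also had Cbln1.

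In droplets, counts were sparse and all nuclei were FFPE. The 7031 nuclei held 500 UMIs of Grid1, 462 of Cbln1, 344 of Cbln3, 46 of Cbln2 and 11 of Cbln4, with a UMI in 6.43%, 6.29%, 4.71%, 0.640% and 0.156% of nuclei. Cbln1 and Cbln3 did not mark a class of the authors' annotation. Cbln1 had a UMI in 8.51% of ExNeuron3 nuclei (6.93 to 10.3), the class with the highest granule neuron list at 4280 CPM against 2442 in all nuclei. It also had one in 6.32% of endothelial nuclei (11 of 174) and 10.8% of microglia (10 of 93), which should lack the gene, at median depths of 321, 302 and 285 UMIs. The Cbln3 shares were 6.24% in ExNeuron3, 5.70% in oligodendrocytes and 4.60% in endothelial nuclei. The interval of the Cbln1 share in ExNeuron3 lay above that of oligodendrocytes, 3.02% (1.39 to 5.66), and overlapped those of endothelial nuclei and microglia. No expression in a class is read from these shares.

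Over the 9 classes of at least 200 nuclei, Cbln1 ran from 82.8 CPM in oligodendrocytes to 251 in ExNeuron3, a ratio of 3.04 (counting interval 1.54 to 6.84), and Cbln3 from 78.4 in oligodendrocyte precursors (OPCs) to 195 in ExNeuron5, a ratio of 2.49 (1.00 to 7.39). The ends were picked from the same counts, so the ratios describe the range and test nothing.

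Grid1 followed another order of classes. It had a UMI in 12.1% of OPCs (8.05 to 17.2), 11.5% of ExNeuron5 (8.25 to 15.4), 11.5% of ExNeuron4 and 8.81% of astrocytes. ExNeuron2 and ExNeuron1 followed with 6.01% and 5.85%, and oligodendrocytes, endothelial nuclei, ExNeuron6 and microglia with 4.03%, 4.02%, 3.83% and 3.23%. ExNeuron3 had 2.71% (1.84 to 3.85). Of these 11 classes of at least 50 nuclei, the 3 highest did not differ from each other beyond their intervals, nor did the 5 lowest, while the interval of ExNeuron3 lay below those of the 3 highest. Fibroblasts had 1 UMI in 47 nuclei. The shares in endothelial nuclei and microglia, at median depths of 302 and 285 UMIs, can be taken as a background, and those of ExNeuron3, ExNeuron6 and oligodendrocytes are not read as expression. The interval of microglia overlapped those of OPCs and ExNeuron5, and that of endothelial nuclei overlapped that of OPCs. A level above this background is therefore not read for OPCs or ExNeuron5 either. With nuclei thinned to 250 UMIs, which left out 183, the shares were 7.55% in OPCs, 6.99% in ExNeuron5, 5.82% in ExNeuron4 and 1.75% in ExNeuron3. In summed level, OPCs were at 379 CPM and ExNeuron3 at 79.5, a ratio of 4.76 (2.77 to 8.17).

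The genes most like each member were named by Pearson correlation of log2 CPM over 11 classes of at least 50 nuclei, among 7814 genes with at least 50 UMIs. The correlations describe 11 points that share 1 library, and no p is given. For Grid1 they were Alcam (0.91), Frmd4a (0.91), Zwint (0.86), Egfem1 (0.83) and Sorcs3 (0.83). For Cbln1 they were Vps11 (0.95), Ero1l (0.90), Gpatch8 (0.89), Trub2 (0.89) and Polg (0.88), and for Cbln3 Ppp2r2d (0.96), Ccdc186 (0.95), Wdr48 (0.95), Rcc1 (0.94) and Mrps12 (0.93). None of the genes listed for Cbln1 or Cbln3 is in the granule neuron list.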

How the data were processed

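Authors' steps. The sources name the builds hg19 and mm10 (submitters' processing notes). The aligner was not given in the sources used here. Deposited tables hold raw counts per gene, and UMI counts in the droplets. Treatments, nuclei numbers and droplet classes come from the authors' deposited annotation. In the SCRB-seq table, rows with the mouse prefix were used.

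Own steps. CPM are counts scaled by the total over mouse genes of a well, nucleus or class. Main fits used edgeR 4.0.16 (TMM scaling, filterByExpr, quasi-likelihood test, Benjamini-Hochberg over all genes tested, threshold 0.05) in R 4.3.3. DESeq2 1.42.0, other filters, covariates, subsets of wells and leaving out wells were alternatives. The scripts were tested on simulated data. FFPE minus frozen chose the members, so it has no test for them. Intervals are exact Poisson or binomial ones at 95% and cover counting error only, and sequenced copies are not all independent molecules. Plates and droplets have 1 sample a group and no test. All droplet nuclei of the annotation were kept, with no doublet step added. Batch 3 of the plates was not analysed here.

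The members, partner list and marker lists were chosen with earlier results of these data known. Named genes are the 5 members, the partners past the threshold in a comparison or at the end of their group, and in droplets the 5 genes most like a member. Grm5 in FFPE minus frozen was named after its values were seen. Some results are not reported here.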

Additional observations from a re-analysis of the deposited data

Results flagged for a closer look

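In the SCRB-seq table, 27 combinations of a gene and a group of 8 wells were looked at, and in 13 of them the highest well stood apart, by a gap to the next well that is above Dixon's 95% critical value for 8 values. For normally distributed values, chance gives such a gap in about 1 of 20 groups. These values are sparse and skewed, and in groups where most wells are at 0 a single count is enough. Of Cbln1, these were 16.9 CPM in 1 frozen well of 100 nuclei and 133 CPM in 1 mineral oil well of 10 nuclei, each a lone count. Of Cbln2, they were 16.2 CPM in a frozen well of 10 nuclei, and 30.1, 53.0 and 35.0 CPM in wells of 100 nuclei after mineral oil, heated xylene and room-temperature xylene. Of Cbln3, they were 887, 604 and 516 CPM in the highest wells of 100 nuclei after mineral oil, heated xylene and room-temperature xylene. Of Cbln4, it was 12.0 CPM in a frozen well of 100 nuclei. Of Grid1, they were 1817 CPM in a frozen well of 10 nuclei with 17611 counts in all, 62.4 CPM in a mineral oil well of 10 nuclei, and 282 CPM in a heated xylene well of 10 nuclei.

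The difference between methods changed with the number of nuclei in 3 of 6 tests (edgeR, an interaction test chosen after seeing the data), where 28.6%, 29.6% and 5% of 1080 genes were called for oil minus heated xylene, oil minus room-temperature xylene and the xylene pair. For Cbln1 the change from 10 to 100 nuclei was 4.07 on the log2 scale for oil minus heated xylene and 4.74 for oil minus room-temperature xylene. For Cbln3 it was −3.61 for the latter pair.

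Rows with the human prefix are outside the comparisons. The human GRID1 row had 21 counts in 10 FFPE wells, 12 of them in 1 mineral oil well, and 2 counts in 2 frozen wells. Human rows took a median of 18.6% of a well's counts after mineral oil, 11.9% after heated xylene, 11.7% after room-temperature xylene and 2.25% in frozen wells.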

How the results depend on the processing

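Wells of different treatments share a nuclei number and no replicate number. With the nuclei number as a replicate block in SMART-Seq2, 0 members were called in each pair of methods, as without it. With 100 against 10 nuclei in SCRB-seq, 1 member was called, Cbln1; it was 2 with no filter (Cbln1 and Cbln2, where Cbln2 had 0 counts in the 24 wells of 10 nuclei and 5035 of 18205 genes were called) and 0 in wells of mineral oil alone (114 of 230 genes called) or of heated xylene alone (178 of 945). For mineral oil minus heated xylene, 0 members were called, and 1 (Cbln3) with the nuclei number as a covariate (143 of 1080 genes called); leaving out 1 well gave 0 to 1. For mineral oil minus room-temperature xylene, 1 member was called (Cbln3), 2 with a filter of 1 count in 8 wells (2465 of 12596 genes called) or with no filter (2925 of 18205; Cbln3 and Grid1 in both), and 0 in wells of 100 nuclei alone (178 of 1953). With the frozen wells in the fit it was also 2, but Grid1 then passed the filter only through the frozen wells, so its call there supports nothing. Leaving out each well in turn, chosen after seeing the data for SCRB-seq, gave 1 to 1 for this pair and for 100 minus 10 nuclei, 0 to 0 for the xylene pair, and 0 to 0 in each SMART-Seq2 pair.

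Signs turned in a few values that were not called. In wells of 100 nuclei alone, Cbln1 was at 0.0056, 0.20 and 0.19 for mineral oil minus heated xylene, mineral oil minus room-temperature xylene and the xylene pair, and Cbln3 at −0.10 for the xylene pair. With library totals, Grid1 in SMART-Seq2 was at −0.021 for mineral oil minus room-temperature xylene. Leaving out 1 well gave −0.11 to 0.65 for Cbln3 and −0.63 to 1.61 for Grid1 in that pair, −0.58 to 0.17 for Cbln3 in the SMART-Seq2 xylene pair, −0.19 to 0.051 for Cbln1 in the SCRB-seq xylene pair and −0.029 to 0.34 for Cbln3 with 100 minus 10 nuclei. The cause was not tested.

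Counts of called genes moved with the filter: 406 for 100 minus 10 nuclei became 4683 at 1 count in 8 wells, 5035 with no filter and 654 in DESeq2's Wald test. For mineral oil minus heated xylene, 92 became 2981 and 3415 with the same filters, 230 with the frozen wells in the fit, 143 with the covariate and 256 in wells of 100 nuclei. For mineral oil minus room-temperature xylene, 111 became 2465, 2925, 251, 201 and 178. For the xylene pair, 21 became 2281, 2899, 87, 62 and 117, and 13 to 14 under other scalings, 33 in the Wald test and 14 in wells of 10 nuclei. Under those scalings the pair split 7 against 6 and 4 against 10, from 11 against 10, and mineral oil minus room-temperature xylene 13 against 86, from 27 against 84. More genes were tested with the looser filters. Cbln2 and Cbln4 had under 3 counts in most wells, which limits the precision of their values.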
